A study of Mus musculus with 6 samples.

Results

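Malat1 and Neat1 are neighbouring genes of long noncoding RNAs on mouse chromosome 19, and the regions of open chromatin nearest their start sites are described here across the culture surfaces of the study. All regions whose deposited gene name was Malat1 or Neat1 were taken, at any distance from the start site. In the table of 32 kPa against plastic these were 13 of 64217 regions, 7 of Malat1 and 6 of Neat1. In the tables against 0.2 kPa they were 1 of 2121 regions listed as higher on 32 kPa and 4 of 2114 listed as higher on plastic, all 5 of Malat1. The locus was chosen by its listed regions, since Malat1 had 4 in the plastic list, so the folds and levels against 0.2 kPa are a description and no test rests on them.

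Malat1 RNA stays in the nucleus and gathers in nuclear speckles, bodies that are rich in splicing factors. Neat1 RNA is the scaffold of paraspeckles, nuclear bodies built on its long isoform together with RNA-binding proteins such as NONO and SFPQ. Both RNAs are abundant in many mammalian cell types, and a small tRNA-like RNA, mascRNA, is cut from the 3′ end of the Malat1 transcript. Accessibility as measured here is that of the DNA and is not a measure of either RNA.

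The cells were primary lung fibroblasts of Col1a1-GFP transgenic mice, sorted for GFP and seeded at 5000 cells per cm2 and grown for 8 days on collagen I. The surfaces were 0.2 kPa silicone (PDMS), 32 kPa PDMS and tissue-culture plastic, all in medium with 10% serum, and all cultures shared the transgene, the coating and the time. The animals' age and number are not given in the sources used here. Open chromatin was tagged by the Omni-ATAC-seq method, whose transposase inserts sequencing adapters where DNA is exposed, on 50000 cells per library, with 2 libraries per culture and 6 in all.

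Each level is a mean that the authors gave for a region in a culture, in log2 normalised reads, and a fold is a difference of such means. Each table holds 1 mean per culture, so neither the spread between libraries nor the depth is known. Nothing in the labels says that the libraries came from separate animals, so the p-values speak only to the spread among these libraries and that spread may be technical. Promoter regions were present for 6 of 6 fibroblast markers (levels 3.42 to 8.87), for 2 of 4 endothelial markers (Tek and Kdr, 3.05 to 3.45), and for 0 of 4 epithelial and 0 of 4 leukocyte markers.

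Both genes are read from the higher to the lower coordinate. In RefSeq (GRCm38, the assembly that mm10 names) Malat1 spans positions 5795690 to 5802672 and Neat1 spans 5824708 to 5845480. The start of Malat1 therefore faces the 3′ end of Neat1 across a gap of 22 kb, and all 7 Malat1 regions lay in that gap. No region of the table overlapped the Malat1 transcript, and 2 overlapped that of Neat1, both in its 5′ part. The other 4 Neat1 regions lay upstream of the gene, of which the outer 2 were at the 3′ end of the next gene, Frmd8. By the deposited annotation 8 of the 13 regions were intergenic, against 38.3% of all regions, and 1 of 13 lay in a repeat (an MTC element of the ERVL-MaLR class, 20.7 kb upstream of Malat1), against 13.4%.

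No region covered the start of Malat1 or that of Neat1, which does not show that the DNA there was closed. The deposited annotation nevertheless calls the region nearest the Malat1 start its promoter. That region (chromosome 19, 5803490 to 5803812) begins 818 bp upstream of the RefSeq start and 567 bp beyond the promoter window shown here. The window is given because it is the sequence at the start site that the listed upstream regions are assigned to. It runs from 250 bases before to 50 bases after the start (GRCm38.p6, chr19:5802623-5802922, minus strand, from RefSeq), with the transcribed bases in capitals.
Malat1 promoter window: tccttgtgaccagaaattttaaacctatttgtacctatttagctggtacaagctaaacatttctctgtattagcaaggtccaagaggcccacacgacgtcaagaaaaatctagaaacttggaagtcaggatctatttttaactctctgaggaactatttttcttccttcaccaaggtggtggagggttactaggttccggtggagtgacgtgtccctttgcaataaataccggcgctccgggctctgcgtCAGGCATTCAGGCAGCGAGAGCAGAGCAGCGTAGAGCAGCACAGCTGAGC
Its GC content was 47%. On both strands it held no match to the AP-1 motif TGANTCA (found in 7.81% of 32851 RefSeq promoter windows of the same length), the TEAD motif GGAATG (14.7%), the TATA box TATAAA (13.6%), the GC box GGGCGG (35.7%) or the CArG box of SRF (1.63%). A missing match says only that these letters are not in the window.

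Every Malat1 and Neat1 region except the outermost was more open than the median region of the series on both stiffer cultures. The strongest by reads per region was an intergenic region 9.6 kb upstream of Malat1 (5812096 to 5812441), at 7.15 on 32 kPa and 7.29 on plastic. Its mean level of 7.22 was above that of 98.9% of all regions. Next was a region inside the Neat1 transcript, 4.75 kb downstream of its start (5840506 to 5840944), at 7.28 on 32 kPa and 7.14 on plastic. These regions stand about equally high, on either side of the 3′ part of Neat1, and their order turned between the cultures. The outermost Neat1 region, in the 3′ UTR of Frmd8 (5851531 to 5851647), was the weakest by the mean of both cultures, with 4.38 on 32 kPa and 4.09 on plastic. On 32 kPa alone the repeat region 20.7 kb upstream of Malat1 was slightly lower, at 4.34.

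**Figure D1:**
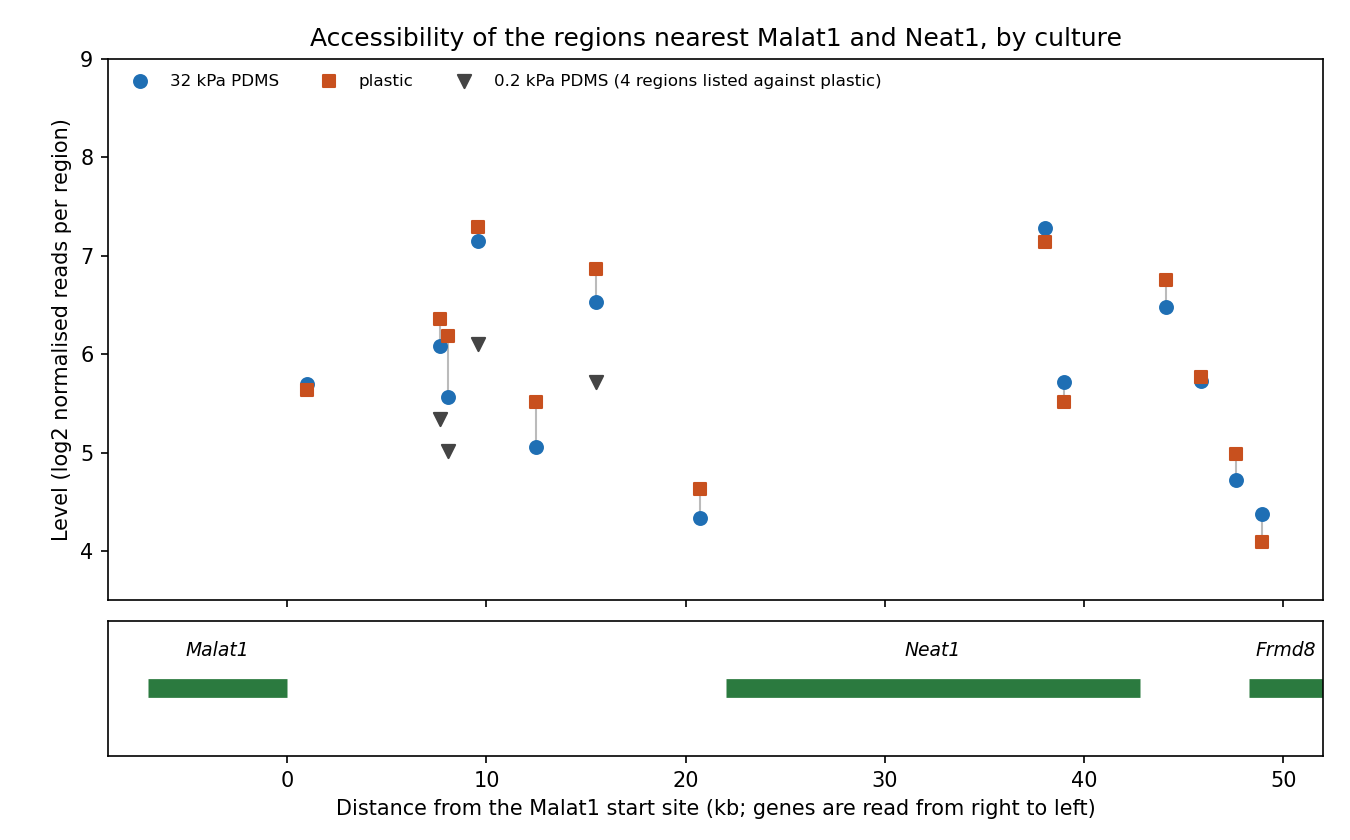
Level (log2 normalised reads per region) of the 13 regions on 32 kPa PDMS (circles) and plastic (squares) against distance from the Malat1 start site in kb, with the level on 0.2 kPa PDMS (triangles) at the 4 regions listed as higher on plastic; the bars below are the RefSeq gene spans. The 4 triangles, at 5.02 to 6.10, lie below both other cultures at the same region, and all are between Malat1 and Neat1. These regions were picked for a lower level on 0.2 kPa than on plastic.

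Region widths ran from 94 to 439 bp, so levels were also set on a scale of normalised reads per 100 bp. On that scale the highest was the narrow Neat1 region 3.79 kb downstream of the start (5841638 to 5841731), which the deposited annotation places at the transcript end of the short isoform, with 56.1 on 32 kPa and 48.5 on plastic. The region 9.6 kb upstream of Malat1 followed with 41.0 on 32 kPa and 45.2 on plastic. The region nearest the Neat1 start, 1.3 kb upstream of it (5846633 to 5846923), had 30.7 and 37.0 reads per 100 bp on the same cultures. The region annotated as the Malat1 promoter had 16.1 and 15.4, and its mean over both cultures was the lowest of the 13 on this scale. Highest and lowest differed 3.32-fold in mean reads per 100 bp, and each of the 13 lay above the median of all regions, 10.8. With 1 mean per culture, neighbours in this order cannot be separated from library spread.

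**Figure D2:**
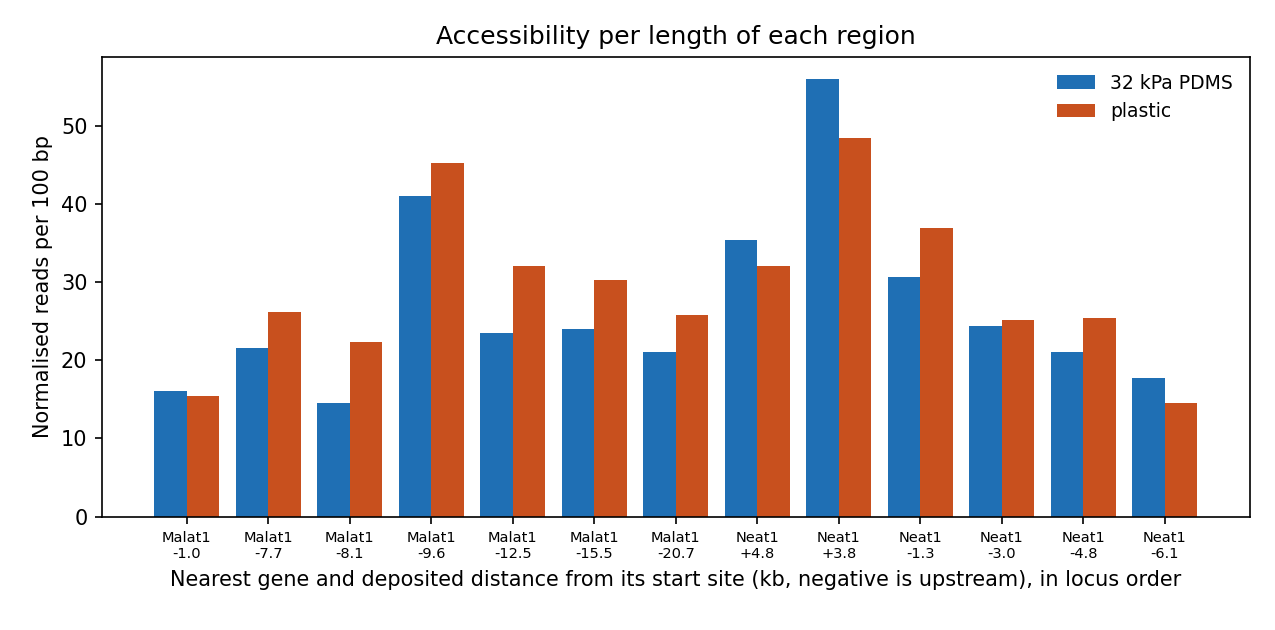
Normalised reads per 100 bp (bars from 0) of each region on 32 kPa PDMS and plastic, in locus order, labelled by nearest gene and signed distance from its start site in kb. The Neat1 region at +3.8 kb is highest with 56.1 on 32 kPa, and the Malat1 region at -1.0 kb is among the lowest with 16.1.

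On plastic, 4 of the 7 Malat1 regions and 0 of the 6 Neat1 regions were listed as more open than on 0.2 kPa. In the table of 32 kPa against plastic, 3.3% of all regions overlapped a region of the plastic list, and 11.7% did among the 18002 at or above the lowest listed plastic level of 4.94. The listing of these regions led to the choice of the locus, so nothing is read from that contrast. The 4 regions lay within 8.2 kb, from 7.67 to 15.5 kb upstream of Malat1, and the last of them ended 6.33 kb from the 3′ end of Neat1. All were annotated as intergenic.

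The strongest of them, 9.6 kb upstream of Malat1, had a level of 6.10 on 0.2 kPa and 7.30 on plastic in the authors' deposited table, or 68.6 against 158 normalised reads. The fold was 1.20 on the log2 scale (FDR = 4.58e-05 by DiffBind in the authors' deposited table), and the region stood 26th of 2114 by FDR. The region farthest upstream (5817998 to 5818381) had 5.72 on 0.2 kPa and 6.87 on plastic in the authors' deposited table (fold 1.14, DiffBind FDR = 0.000587). The other 2 regions form a close pair, 74 bp apart.
The nearer of the pair (5810183 to 5810496) had 5.34 on 0.2 kPa and 6.37 on plastic, a fold of 1.03 in the authors' deposited table (DiffBind FDR = 0.00955). Its partner (5810571 to 5810895) had 5.02 and 6.19 in the authors' deposited table (fold 1.17, DiffBind FDR = 0.00521). In linear terms all 4 held 2.04 to 2.30 times as many reads on plastic, near the median fold of 1.12 on the log2 scale over the whole plastic list. They differed from the list more in level, since all 4 exceeded its median of 5.73 on plastic and of 4.61 on 0.2 kPa.

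On 32 kPa, 1 of the 7 Malat1 regions and 0 of the 6 Neat1 regions were listed as more open than on 0.2 kPa, where 3.31% of all regions overlapped the list and 12.5% of the 17026 at or above its lowest level of 4.97. It was the same strong region 9.6 kb upstream of Malat1, which in this table ran from 5812096 to 5812424. It had 6.08 on 0.2 kPa and 7.13 on 32 kPa, with a fold of 1.05 (DiffBind FDR = 0.00262) in the authors' deposited table. The 2 comparisons share the 0.2 kPa libraries and are therefore not independent.

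At the 3 regions listed for plastic alone, the level on 32 kPa came from the comparison of the stiffer cultures, whose scaling may differ slightly. There it exceeded the 0.2 kPa level by 0.74 and 0.54 at the close pair and by 0.81 at the region 15.5 kb upstream. All 3 were thus higher on 32 kPa than on 0.2 kPa, short of the fold of 1 that is the smallest in either list. Their 0.2 kPa levels are those by which they were listed, so the choice of the regions favoured this direction. At 653 regions of the plastic list with the same coordinates in both comparisons, the 0.2 kPa level minus the 32 kPa level had a median of -0.85. The rises at these 3 regions were therefore not particular to Malat1. No difference between the stiffer cultures follows from their absence from the 32 kPa list.

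**Figure D3:**
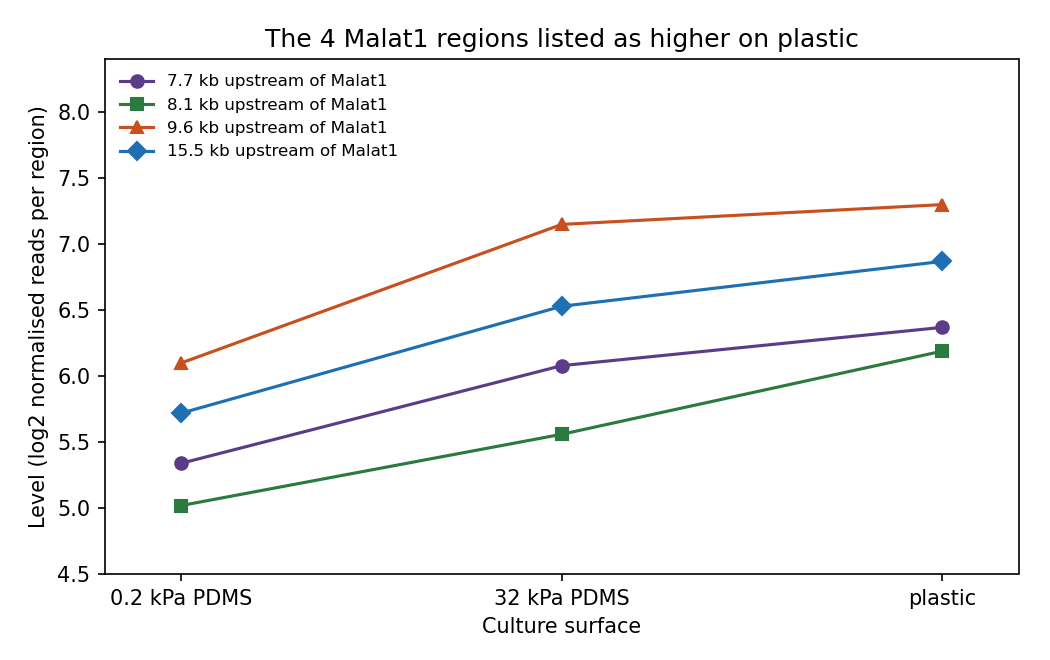
Level (log2 normalised reads per region) of the 4 Malat1 regions listed as higher on plastic, on each culture surface; each line is a region and each point the authors' mean of 2 libraries, with no error available. All 4 lines are lowest on 0.2 kPa (5.02 to 6.10) and highest on plastic (6.19 to 7.30). The regions were picked as higher on plastic than on 0.2 kPa, which fixed the order of those ends. Of all regions listed on plastic, 80.3% were also higher on plastic than on 32 kPa. Of those listed on plastic and not on 32 kPa, 98.3% were.

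The remaining Malat1 and Neat1 regions have no 0.2 kPa level in the tables used here. On plastic, 3 Malat1 regions were unlisted. The promoter-annotated one (5.64) and the one 12.5 kb upstream (5.51) lay above the lowest listed level, and the repeat region (4.63) lay below it. Of the 6 Neat1 regions, 5 on plastic and 4 on 32 kPa reached the lowest listed level. At those regions a rise of at least 1 that passed the FDR would have been listed, but smaller rises, or falls, may have occurred.

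Malat1 shared the highest count of listed regions per gene in the plastic list with Rpl31, a ribosomal protein gene, whose 4 regions spread over 86.1 kb (folds 1.09 to 1.29 in the authors' deposited table). Of all regions assigned to each gene, 6 of 7 for Malat1 and 4 of 9 for Rpl31 reached the lowest listed level on plastic. The next genes, Alkal1, Ankrd16 and Elmo1, were among 16 with 3 listed regions each, and 1762 of the 1928 genes had a single one. A window as wide as the Malat1 group (8199 bp), begun at each listed region in turn, held 4 listed regions at 1 place for plastic, which was the Malat1 group itself, and at 0 places for 32 kPa. In the 32 kPa list Atp10a had 4 regions over 162 kb, and Alkal1, Col4a1, Ddr1 and Dut were among 10 genes with 3 each. These counts describe the group by which the locus was chosen. The window was set to the width of that group, so it was certain to hold it, and any slightly wider group was left out. Nothing is therefore read from the window counts or from their difference between the lists.

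Between 32 kPa and plastic, none of the 13 regions differed by the authors' DiffBind test, and neither did any of the 64217 regions (0% at an FDR of at most 0.05, where every FDR was 1). At an unadjusted p under 0.05 there were 0 of 13 regions and 370 of all regions (0.576%). Of the Malat1 regions, 6 of 7 had the higher mean on plastic, with a median fold of 0.29 (plastic minus 32 kPa) over the 7. Of the Neat1 regions, 3 of 6 were higher on plastic, with a median of -0.05. Over all regions 55.0% were higher on plastic, with a median of 0.05. The difference between the genes was not tested, since regions of a gene are not replicates.

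The largest fold of the 13 was at the outer region of the close pair upstream of Malat1 (5810571 to 5810895), with 5.56 on 32 kPa and 6.18 on plastic in the authors' deposited table (fold 0.62, p = 0.0539 by DiffBind, FDR = 1). Of the other regions 418 had a p as low, and 99.7% of the 4075 regions within 0.25 of its mean level had a smaller fold. The region was picked as the largest of the 13 and is listed on plastic alone, so nothing is read from this rank. The region 12.5 kb upstream followed with 5.06 and 5.51 in the authors' deposited table (fold 0.46, p = 0.255 by DiffBind). The promoter-annotated Malat1 region was nearly level, with 5.70 and 5.64 in the authors' deposited table (fold -0.06, p = 0.874 by DiffBind). At Neat1 the 2 regions within the transcript had folds of -0.14 and -0.21, and the region 1.3 kb upstream of the start had 0.26, in the authors' deposited table. Part of the Malat1 pattern was fixed by the choice of the locus, because the plastic libraries enter both comparisons. Over all regions in the plastic list the median fold was 0.19, over the 1438 regions listed on plastic and not on 32 kPa it was 0.29, and over the 4 of Malat1, of which 3 are listed on plastic alone, it was 0.31.

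**Figure D4:**
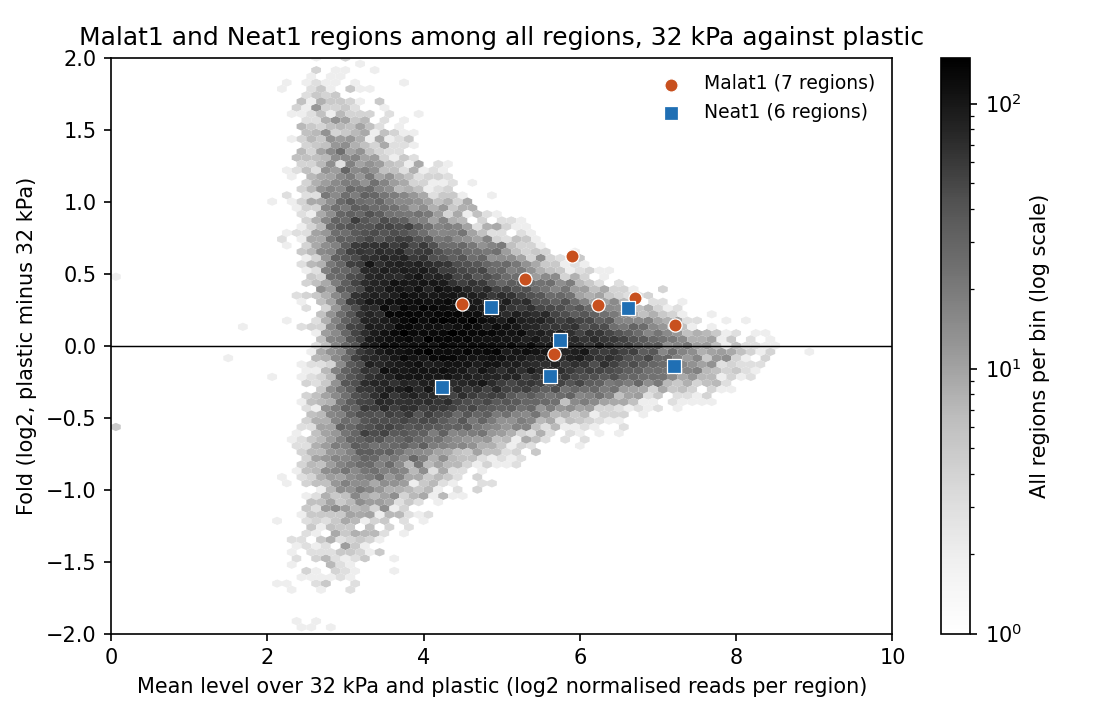
Fold (log2, plastic minus 32 kPa) against mean level for all regions (grey bins, log colour scale; 191 regions lie outside the axes) with the Malat1 regions as circles and the Neat1 regions as squares. The Malat1 region with a fold of 0.62 lies at the upper edge of the regions of its level, and Neat1 regions lie on both sides of 0, from -0.29 to 0.27.

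Neighbouring genes also had regions in the plastic list. Of the 12 regions of the flanking genes reported here 3 were listed on plastic, and these were 3 of the 6 at or above the lowest listed level, against 3.3% and 11.7% in the series. The 12 regions lie along 1 stretch of chromosome around a locus chosen for its plastic listings. No difference from those shares was tested, and nothing is read from it. On the 3′ side of Malat1, 5 regions were assigned to Mascrna, the gene of the small RNA cut from the Malat1 transcript. Of these, 1 was listed on plastic (5787186 to 5787532), with 4.88 on 0.2 kPa and 5.92 on plastic in the authors' deposited table (fold 1.05, FDR = 0.0223), and all 5 had the higher mean on plastic than on 32 kPa (median 0.26). Ltbp3 encodes a latent TGF-beta binding protein. Its region listed on plastic had a fold of 1.12 in the authors' deposited table (DiffBind FDR = 0.0406). The Frmd8 promoter was listed on plastic with a fold of 1.19 in the authors' deposited table (DiffBind FDR = 0.043). Slc25a45 and Tigd3, beyond Frmd8, had no listed region. None of the 12 flanking regions was listed on 32 kPa.

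Genes of proteins of the nuclear bodies in which the RNAs gather were counted in both lists, beside the share over all genes, and no difference was tested. High enough means here at or above the lowest listed level. Among all genes with a region high enough, 17.9% had a listed region on 32 kPa and 17% on plastic. Of 20 paraspeckle protein genes, 13 had a region high enough, of which 3 were listed on 32 kPa (Fam98a, Cpsf7 and Hnrnph3, folds 1.26, 1.25 and 1.03 in the authors' deposited table) and 1 on plastic (Hnrnpk, an RNA-binding protein gene, fold 1.11 in the authors' deposited table). The core genes Nono and Sfpq were high enough on both cultures and were in neither list. Their strongest regions had 5.65 and 6.80 on 32 kPa. Pspc1 lay below the lowest listed level on both cultures, at 4.24 on 32 kPa and 4.90 on plastic.
Of 20 nuclear speckle protein genes, 18 had a region high enough. On 32 kPa 6 were listed, led by the Rbm25 promoter (fold 1.25), a region 1.1 kb upstream of the kinase gene Prpf4b (1.16) and the promoter of the splicing factor gene Srsf3 (1.07), per the authors' deposited table. On plastic 2 were listed, Prpf4b (fold 1.18) and Srsf1 (1.11), per the authors' deposited table. Of 20 other long noncoding or structural RNA genes, 2 of 11 were listed on 32 kPa, Dnm3os (fold 1.13) and Rmrp (1.1), and 5 of 12 on plastic, led by Epb41l4aos (1.42), Tug1 (1.18) and Dnm3os (1.08), per the authors' deposited table. The regions of Dnm3os, Rmrp and Tug1 were promoters, unlike those of Malat1, and the Epb41l4aos region lay 74.1 kb from the start. Between 32 kPa and plastic the median folds (plastic minus 32 kPa) were 0.08 over 43 paraspeckle regions, -0.06 over 51 speckle regions and 0.13 over 42 regions of the RNA genes.

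The 5 regions with levels most like the strongest Malat1 region were promoters. By the summed absolute difference in level on 32 kPa and plastic, the nearest 5 were those of Hs3st3b1 (0.01), Narf (0.02), Ptpn4, Pcnx4 and Txndc11 (0.04 each). All 5 lay within 490 bp of a start site, whereas the Malat1 region is 9.6 kb from its nearest. The share of promoters among all regions of such levels was not counted, so nothing is read from this contrast.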

How the data were processed

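Per the submitters' processing notes, the authors used BWA, Picard, MACS2 and DiffBind with the build mm10; versions, any shift of reads for the transposase, peak merging and scaling are not given in the sources used here. The deposited log2 levels are, per the file headers, DiffBind means, over both libraries of a culture, of normalised reads, and the deposited log2 folds are their differences. Each p-value and FDR was computed by the authors. Gene names, annotations and distances are the authors' deposited ones, in the layout of HOMER, and name the nearest start site.

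The members and gene lists were chosen with earlier results of these data known. The tables against 0.2 kPa call their sides Control and Treat. At 643 intervals with the same coordinates in the table that names its cultures, Control equalled the 32 kPa level, and at 653 such intervals of the plastic table it lay 0.01 to 0.02 above the plastic level, so Control was read as the stiffer culture. Starts in those 2 tables were moved by 1 to match the third, and 1 repeated header row was dropped. Both list only folds of at least 1 with an FDR of at most 0.05.

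No new test was run. Listed regions were matched to the third table at 50% of both lengths, and background shares count an overlap of at least 1 bp. Reads per 100 bp are the linear level divided by the region's width. Alternatives covered the FDR and fold limits, gene assignment, matching, centring and weighting. The named genes were Malat1, Neat1, the 3 genes on each side (1 of them is not reported here), up to 3 genes per list with the largest folds, the 5 genes with the most listed regions and the 5 regions nearest in level. Depth per library is unknown. Interval matching was tested on simulated data. Python 3.11.15, pandas 2.3.3, numpy 2.4.6 and matplotlib 3.10.9 were used.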

Additional observations from a re-analysis of the deposited data

How the results depend on the processing

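Of the 15 alternatives, 14 were labelled as leaving the result the same, but several of them could not have changed it. The span of the 13 regions held no region of another gene, so counting every region within it could change no count. The 5 regions assigned to Mascrna lie outside that span, and 1 of them is listed on plastic. Counting them under Malat1, whose transcript holds that small RNA, was not among the alternatives and would have raised the plastic count. Between 32 kPa and plastic every region had the same FDR. Neither a wider FDR limit nor a limit on distance could therefore change the count of 0 there. With a fold of at least 1.1 on the log2 scale, 0 regions of Malat1 or Neat1 remained in the 32 kPa list, in place of 1, and 3 in the plastic list, in place of 4. The change from 4 to 3 was still labelled as the same. An FDR under 0.01 left 1 and 4. The median fold over the 13 regions (32 kPa minus plastic) was -0.26 as deposited, -0.21 when centred on the median of all regions, -0.15 from summed linear levels and -0.20 over the 10 regions whose mean level reached the lowest listed one. No paired analysis was possible because the tables hold 1 mean per culture, and no library could be left out for the same reason. Precision rests on the authors' FDR alone.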
